A study of Homo sapiens with 18 samples.

Results

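This report describes 168 rows of a gene count table whose gene names end in -AS and a digit, that is, named antisense long noncoding RNAs (lncRNAs) of a human prostate epithelial cell line. The table has 57773 rows, of which 878 carry such a name and 447 of these had a count in some library. The members were chosen by their measured level: at least 10 counts in at least 3 of the 18 libraries, which 171 named rows reached, less 3 (RUSC1-AS1, IDI2-AS1 and ZSWIM8-AS1) set aside by name. CEBPB-AS1, also excluded by name, was below the limit. The 5 members with exactly 3 such libraries had means of 6.06 to 7.11 counts per library, and the 8 rows just outside, with exactly 2, had means of 4.0 to 5.5. Among the members, 95 had at least 10 counts in all 18 libraries, and 10 would have missed the limit without the libraries of 1 group. Of these 10, ANO1-AS1 was the only one called in any comparison.

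The cells were RWPE1, an established benign prostate epithelial line, stably carrying 1 of 3 tamoxifen-inducible constructs called MACCs (modifiers of chromatin that contains androgen response elements, AREs). Every construct holds the DNA-binding domain of the androgen receptor without its N-terminal part, a nuclear localisation signal, an epitope tag and ERT2, a hormone-binding domain through which tamoxifen activates the protein. The neutral construct (3X FLAG) carries nothing further, the repressive construct adds KRAB, a domain that recruits silencing complexes, and the activating construct adds VP64, a strong transcriptional activator. Each line was selected with blasticidin and given ethanol vehicle or tamoxifen for 48 h, with 3 biological replicates in each of the 6 groups. For the dose of tamoxifen, 1.5 uM stands in the treatment label and 1.25 uM in the protocol text. Each line is 1 ectopically expressing population, so a difference between vehicle-treated lines cannot be told apart from a difference between these populations.

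An antisense lncRNA is transcribed from the strand opposite another gene, usually from a start site near the start of that gene or inside it, and by convention takes the name of the gene it faces, called the partner here. Some such RNAs act on the partner at the locus, some act elsewhere and many have no known function. Where exons of the pair share the same stretch of DNA, a read can be given to one gene or the other only if the library records the strand and the counting uses it. The libraries were made with a stranded mRNA kit, and the strandedness setting of the counting is not given in the sources used here. Counts are therefore described as counts of the antisense row or of the partner row, and whether a count comes from the antisense RNA or from its partner was not tested.

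A few pairs show what the shared stretches look like. The windows below are 30 bases of GRCh37 inside exons of both genes, each printed 5′ to 3′ on the strand of the gene named, with capitals marking coding bases of the partner. They were chosen because these pairs carry the results on VIM-AS1, ADIRF-AS1, ARAP1-AS1 and EPB41L4A-AS1.

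The VIM window lies at chr10:17271407-17271436, at the start codon of VIM, with VIM on the plus strand and VIM-AS1 on the minus strand.
VIM: ccaccctccgcagccATGTCCACCAGGTCC
VIM-AS1: GGACCTGGTGGACATggctgcggagggtgg

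The ADIRF window lies at chr10:88730322-88730351, at the end of the ADIRF coding sequence, with ADIRF on the plus strand and ADIRF-AS1 on the minus strand.
ADIRF: TTCGGCCTCCTGAAAtgacagcagggagac
ADIRF-AS1: gtctccctgctgtcaTTTCAGGAGGCCGAA

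The ARAP1 window lies at chr11:72396278-72396307 and the EPB41L4A window at chr5:111499400-111499429, both in exons outside the partner's coding sequence, with the partner on the minus strand and the antisense gene on the plus strand.
ARAP1: cgggtgctgtagaggagcactcagctcacg
ARAP1-AS1: cgtgagctgagtgctcctctacagcacccg
EPB41L4A: agattttcctctcattctcagccagttttc
EPB41L4A-AS1: gaaaactggctgagaatgagaggaaaatct

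Such shared exons were the rule among the members. Of the 168 antisense genes, 145 overlapped exons of the named partner on the opposite strand in the GENCODE annotation lifted to GRCh37, 12 did not, 7 had no gene model there and 4 (HOXA-AS3, HOXA-AS2, HOXD-AS2 and MLK7-AS1) had no row for a partner of that name. The overlap ran from 31 to 5135 bases with a median of 483, covered a median of 19.01% of the antisense exon bases, and reached the partner's coding sequence in 115 pairs. ARAP1-AS1 had 385 of its 388 exon bases opposite ARAP1 and ANO1-AS1 all 646 opposite ANO1, whereas ADIRF-AS1 had 677 of 5748 opposite ADIRF. For 28 members another gene than the partner had the largest opposite overlap: IL10RB-AS1 had no exon base opposite IL10RB, a subunit of interleukin-10 family receptors, and 1803 opposite IFNAR2, a subunit of the type I interferon receptor. DNAJC9-AS1 likewise lay opposite TTC18 (405 bases) and not DNAJC9, and HOXA-AS3 lay opposite HOXA7 (1507 bases).

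Total counts per library were 675609 to 792282, so that a row at 0 in a library could still have a level of up to 3.79 to 4.44 CPM (the level that 3 counts would give, with counting error only). The members held 3.74% of all counts, with 3.47% to 4.21% per library, and the 12 members with the highest level held 58.95% of the members' counts. All 3 repressive vehicle libraries were at the top of this range (4.16% to 4.21%). The sum of 6 basal epithelial genes was 1259 to 2365 counts per library, most of it from KRT5 (680 to 1135) and KRT14 (435 to 857). The others were lower: ITGB4 had 59 to 284 counts, KRT15 18 to 105, LAMB3 9 to 42 and TP63 4 to 25. Of 4 general epithelial genes, KRT8 had 513 to 1011 counts, KRT18 14 to 36, CDH1 2 to 15 and EPCAM 0 to 8. Markers of other cell types were low as whole lists: the sum of 4 luminal secretory genes was 0 to 2 counts per library (KLK3 and KLK2 at 0 in all 18), of 2 neuroendocrine genes 0 to 4 and of 2 endothelial genes 0. Of 4 immune genes PTPRC, CD3E and LYZ were at 0, while CD68 had 8.70 to 28.9 counts, and of 4 fibroblast genes COL3A1, DCN and LUM were at 0, while COL1A1 had 0 to 12.999 counts.

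In most pairs the antisense row held more counts than its partner. The mean count of the antisense row was above that of the partner in 146 of 164 pairs, and at least 10 times as high in 82. It was higher in every library in 105 pairs and lower in every library in 12. These counts describe members chosen by their own antisense level, and no test was made. Per kilobase of exon the antisense row was higher in 137 of the 157 pairs with both lengths. The part of gene length in this order was not tested. Among all rows of such names whose pair had any count, chosen by no level, the antisense row was higher in 217 of 705. Summed over those pairs, antisense rows held 55.0% of the counts of the 405 pairs with shared exons and 10.5% of the counts of the 276 without. Among the members the share was 57.8% in the 145 pairs with shared exons, which include FAM211A, and 84.8% in the 12 without. The FAM211A pair weighs heavily on the first value. Over all members the share was 59.5% with that pair and 88.1% without it. No order of the sets with and without shared exons is therefore read from these sums. The antisense row was the higher in 130 of these 145 and in 10 of these 12.

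**Figure D1:**
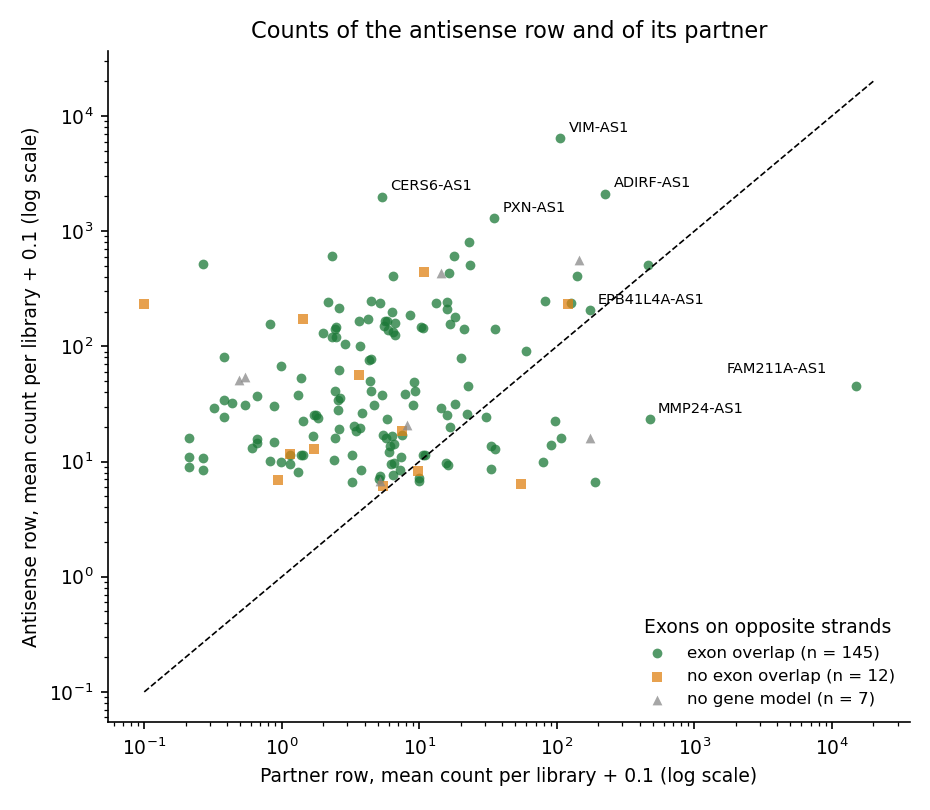
Mean count per library of each antisense row (vertical axis) against that of its partner row (horizontal axis), both on log scales after adding 0.1 counts, for 164 pairs; colour and marker give the exon overlap and the dashed line marks equal counts. VIM-AS1, CERS6-AS1, PXN-AS1 and ADIRF-AS1 sit far above the line, and FAM211A-AS1 and MMP24-AS1 far below it.

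VIM-AS1 (chr10:17256238-17272017, minus strand) was the member with the highest level. It faces VIM, which encodes vimentin, the intermediate filament protein of mesenchymal and many cultured cells. The VIM-AS1 row had a mean of 6416 counts per library and the VIM row 106, so the antisense row held 98.4% of the pair, with 98.1% to 99.0% in single libraries. ADIRF-AS1 (chr10:88725102-88731068, minus strand), opposite the adipogenesis regulatory factor ADIRF, had 2118 counts against 224. CERS6-AS1, opposite a ceramide synthase, had 1999 counts against 5.22, and PXN-AS1, opposite the focal adhesion adaptor paxillin, 1297 against 35.1. All 4 antisense rows were the higher row of the pair in all 18 libraries.

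The next members in level were ZNF337-AS1 (802 counts against 22.9 for a zinc finger gene), SLC25A5-AS1 (614 against 17.8 for a mitochondrial ADP/ATP carrier), PRMT5-AS1 (614 against 2.22 for an arginine methyltransferase) and HNRNPU-AS1 (565 against 145 for a nuclear RNA-binding protein). RNF219-AS1 had 523 counts against 0.167 and PCBP1-AS1 509 against 23.3 for a poly(C)-binding RNA-binding protein. H1FX-AS1, opposite a linker histone gene, was nearly level with its partner (507 against 460 counts, higher in 14 of 18 libraries). HOXA-AS3 (491 counts) has no partner row of its name.

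A minority of pairs had the opposite order. FAM211A-AS1, now named SNHG29 as a host of small nucleolar RNAs, had 45.2 counts against 14924 for FAM211A. MMP24-AS1 had 23.3 against 474 for a membrane-type matrix metalloproteinase and OGFR-AS1 13.8 against 90.9 for the opioid growth factor receptor. SBF2-AS1 had 22.6 against 97.2. EPB41L4A-AS1 and its partner, a FERM-domain protein of the cytoskeleton, were close (207 and 173 counts), and the antisense row was the higher in 9 of 18 libraries. Summed over all 164 pairs, antisense rows held 59.5% of the counts (54.8% to 67.0% per library). Without the single pair of FAM211A-AS1 and FAM211A they held 88.1% (86.8% to 89.8%).

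The first question the design poses is what each construct did when tamoxifen was added. A row is called changed here when its Benjamini-Hochberg adjusted p from one DESeq2 model of all 18 libraries was under 0.05, among 5816 tested genes. Rows that the independent filtering of DESeq2 left without an adjusted p could not be called, and shares are still given over all tested rows. Values given for single libraries are normalized counts, that is, counts divided by DESeq2 size factors, and always in the order of replicates 1 to 3. Log2 fold changes are given with their standard error (SE). Whether groups overlap is given for called rows only, and the share over all genes was not computed. A separation of groups is therefore a description of a called row and not a further test.

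Tamoxifen called 27 of the 168 members (16.1%) in the repressive line, where 9.65% of all tested genes were called. Of these, 14 were higher and 13 lower with tamoxifen, beside 5.62% and 4.02% of all tested genes. An adjusted p was left for 156 of the 168 members and 4575 of the 5816 tested genes in this line. Without ANO1-AS1, a member only through its high group, 26 were called, 13 of them higher. The median log2 fold change of the members was -0.02, and that of all tested genes was also -0.02. In the neutral line 1 member was called, with 0.774% of all genes called, and in the activating line 6 members (3.57%), with 2.80% of all genes. An adjusted p was left for 60 members and 1193 genes in the neutral line and for 70 and 1644 in the activating line. In the activating line 4 members were higher and 2 lower, beside 1.34% and 1.46% of all genes. There 2 or 3 members were called when any library of that line was left out. No member was called in all 3 lines, 5 were called in 2, and 29 in any. The matching shares of all tested genes were not computed, so these counts across lines are a description only. At an unadjusted p under 0.05 there were 14, 49 and 19 members in the neutral, repressive and activating lines (8.33%, 29.2% and 11.3%), beside 7.75%, 19.7% and 10.4% of all tested genes, so the neutral and activating shares were near those of all genes. Scaling the libraries by total counts lowered the median log2 fold change of all genes in the repressive line by 0.13 and called 29 members, so directions are relative to the typical gene.

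**Figure D2:**
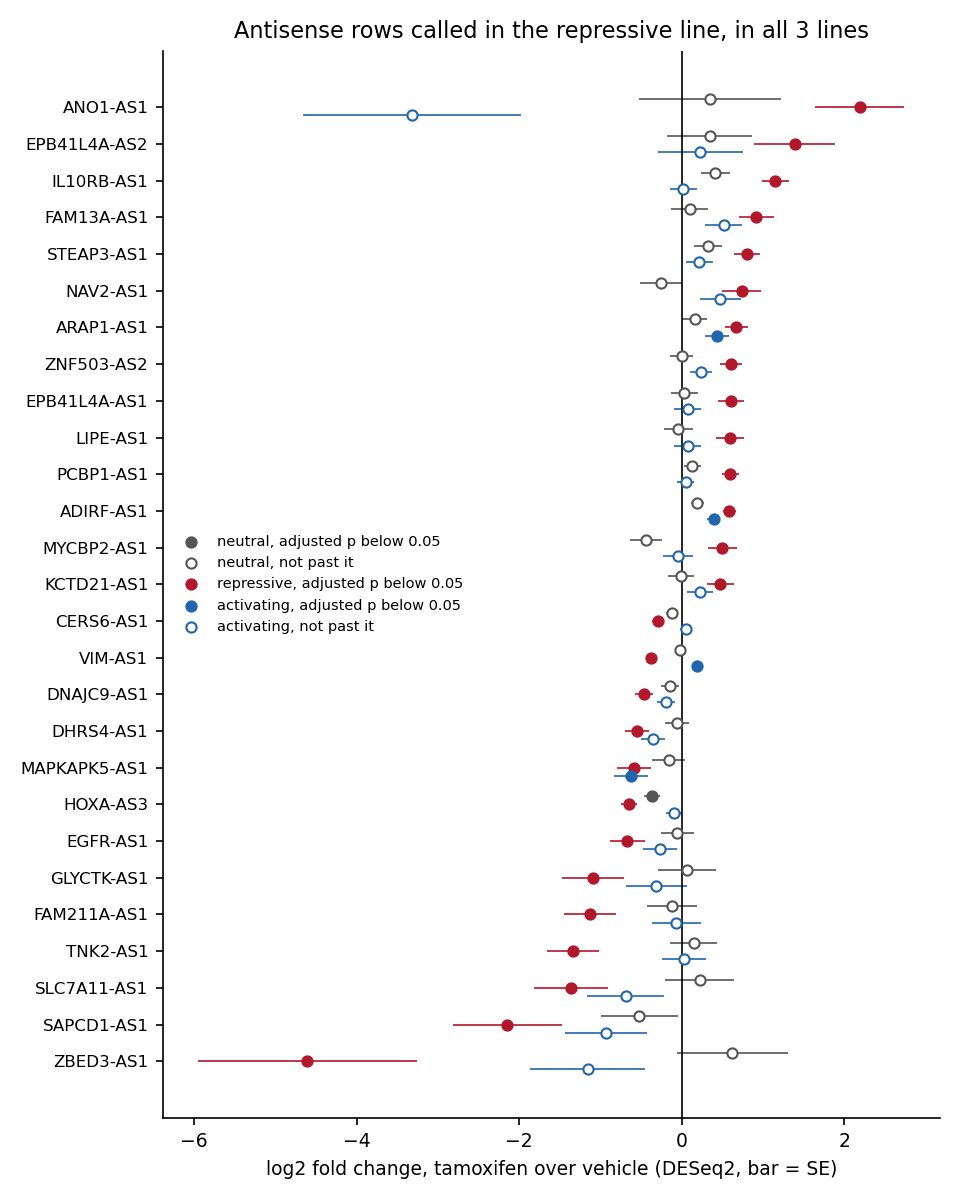
Log2 fold change with tamoxifen (horizontal axis, bars are SE) in the neutral, repressive and activating lines for the 27 members called in the repressive line, ordered by that value; filled symbols have a DESeq2 adjusted p below 0.05. The values in the repressive line run from -4.61 for ZBED3-AS1 to 2.19 for ANO1-AS1, and 5 of these members have a filled symbol in a second line.

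Of the members opposite genes of adhesion, the cytoskeleton and membrane signalling, 14 were on a list of such partners. In the repressive line 2 of these rose (EPB41L4A-AS1 and EPB41L4A-AS2) and 3 fell (VIM-AS1, EGFR-AS1 and MAPKAPK5-AS1), with a median log2 fold change of 0.22. These calls were 35.7% of the 14, beside 9.65% of all tested genes, and the 2 that rose share the partner EPB41L4A. In the activating line 1 rose (VIM-AS1) and 1 fell (MAPKAPK5-AS1), 14.3% of the 14, beside 2.80% of all tested genes. TNK2-AS1, ARAP1-AS1, IL10RB-AS1, STEAP3-AS1 and ANO1-AS1, described after them, were not on the list. In these bulk libraries, fewer cells of one kind and less RNA per cell cannot be told apart.

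The VIM-AS1 row moved in opposite directions in the 2 lines with an effector domain. In the repressive line it had 8745, 9012 and 9496 normalized counts with vehicle and 6767, 7103 and 7161 with tamoxifen. In the activating line it had 4591, 4485 and 4406 with vehicle and 5162, 5133 and 5020 with tamoxifen. In the neutral line it had 6269, 5613 and 5753 with vehicle and 6047, 5840 and 5510 with tamoxifen. All repressive libraries with tamoxifen lay below all with vehicle, all activating libraries with tamoxifen lay above theirs, and the neutral groups overlapped. The change was -0.37 on the log2 scale (SE 0.05, DESeq2 adjusted p = 1.5e-10) in the repressive line and 0.18 (SE 0.05, adjusted p = 0.011) in the activating line. The activating change was not called by edgeR, nor without activating tamoxifen replicate 1 (DESeq2 adjusted p = 0.0771) or 3 other libraries in turn (0.0627 to 0.0858). Its difference from the neutral change was not called (0.20, DESeq2 adjusted p = 0.14).

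The VIM row, at about 100 counts, had 166, 163 and 129 normalized counts in repressive vehicle and 111, 70.8 and 128 in repressive tamoxifen. It fell with the VIM-AS1 row (log2 fold change -0.56, SE 0.19, DESeq2 adjusted p = 0.035), and its groups did not overlap, although the lowest vehicle library and the highest tamoxifen library were almost equal. In the activating line its change was -0.01 (adjusted p = 0.98).

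TNK2-AS1 (chr3:195634947-195640857) faces TNK2, a non-receptor tyrosine kinase. It had 55.1, 43.1 and 52.4 normalized counts with vehicle and 25.2, 11.6 and 22.01 with tamoxifen in the repressive line, with no overlap. It had 36.4, 36.3 and 36.5 against 40.5, 43.8 and 36.6 in the neutral line and 67.2, 60.8 and 40.7 against 55.7, 64.2 and 52.5 in the activating line. The fall in the repressive line was -1.34 (SE 0.32, DESeq2 adjusted p = 0.00048). The TNK2 row had a log2 fold change of -0.98 that was not past the threshold (adjusted p = 0.13).

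EGFR-AS1 lies opposite a coding exon of the epidermal growth factor receptor gene. It had 114, 96.1 and 74.4 normalized counts with vehicle and 68.9, 59.2 and 50.3 with tamoxifen in the repressive line, without overlap. Its fall of -0.67 (SE 0.22, DESeq2 adjusted p = 0.021) stood beside -0.67 in the EGFR row (adjusted p = 0.13), and the call was lost when any of 4 libraries was left out (0.0563 to 0.178). MAPKAPK5-AS1, opposite a stress-activated protein kinase, fell in the repressive (-0.59, adjusted p = 0.040) and activating lines (-0.63, adjusted p = 0.038). Both its calls were lost under edgeR and without each of several libraries (up to 0.196 and 0.378).

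ARAP1-AS1 (chr11:72396120-72404853), opposite a GTPase-activating protein for small GTPases of the Arf family, rose in both lines with an effector. It had 151, 174 and 135 normalized counts with vehicle and 249, 234 and 250.5 with tamoxifen in the repressive line, and 132, 137 and 153 against 215, 172 and 184 in the activating line. Neither line's groups overlapped, and the neutral groups did (153, 151 and 141 against 185, 152 and 160). The log2 fold changes were 0.67 (SE 0.15, DESeq2 adjusted p = 8.9e-05) and 0.43 (SE 0.15, adjusted p = 0.044). The activating call was lost under edgeR and without any of 5 libraries in turn (0.0573 to 0.282). The ARAP1 row had values of -0.33 and 0.64 in these lines and was not called. For ARAP1-AS1 neither difference from the neutral effect was called. Repressive minus neutral was 0.51 (DESeq2 adjusted p = 0.12) and activating minus neutral 0.27 (adjusted p = 0.62).

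IL10RB-AS1 and STEAP3-AS1, both outside the lists, rose in the repressive line. IL10RB-AS1 (chr21:34636178-34638601) had 149, 117 and 152 normalized counts with vehicle and 266, 364 and 301 with tamoxifen. STEAP3-AS1, opposite an endosomal ferrireductase, had 160.5, 138 and 141 against 221, 251 and 297. In both rows every tamoxifen library of that line lay above every vehicle library. The log2 fold changes were 1.16 (SE 0.17, DESeq2 adjusted p = 2.0e-10) and 0.81 (SE 0.16, adjusted p = 2.2e-05). The neutral groups were apart in the same direction. IL10RB-AS1 had 111, 116 and 112 against 140, 162 and 152 there, and STEAP3-AS1 102, 118 and 105 against 145, 142 and 121. These neutral changes (0.42 and 0.33) were not called. For STEAP3-AS1 the difference between the 2 lines was not called either (0.48, adjusted p = 0.24).

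ANO1-AS1 (chr11:70033894-70034615) lies wholly opposite exons of ANO1, a calcium-activated chloride channel. It had 14.2, 10.8 and 5.51 normalized counts with vehicle and 47.6, 47.6 and 44.01 with tamoxifen in the repressive line, and no more than 5.79 in any library of the other lines. It was high in the 3 repressive tamoxifen libraries, intermediate in repressive vehicle and near 0 elsewhere. Its summed counts were 33 with vehicle and 132 with tamoxifen, a ratio per total counts of 4.18 (95% exact binomial interval 2.83 to 6.32, counting error only). Outside the repressive tamoxifen group only 2 libraries had 10 counts, so the row is a member only through the group in which it was high. Its log2 fold change of 2.19 (SE 0.55) is therefore a description and its call is not used as a test. The ANO1 row itself had a mean of 0.167 counts.

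**Figure D3:**
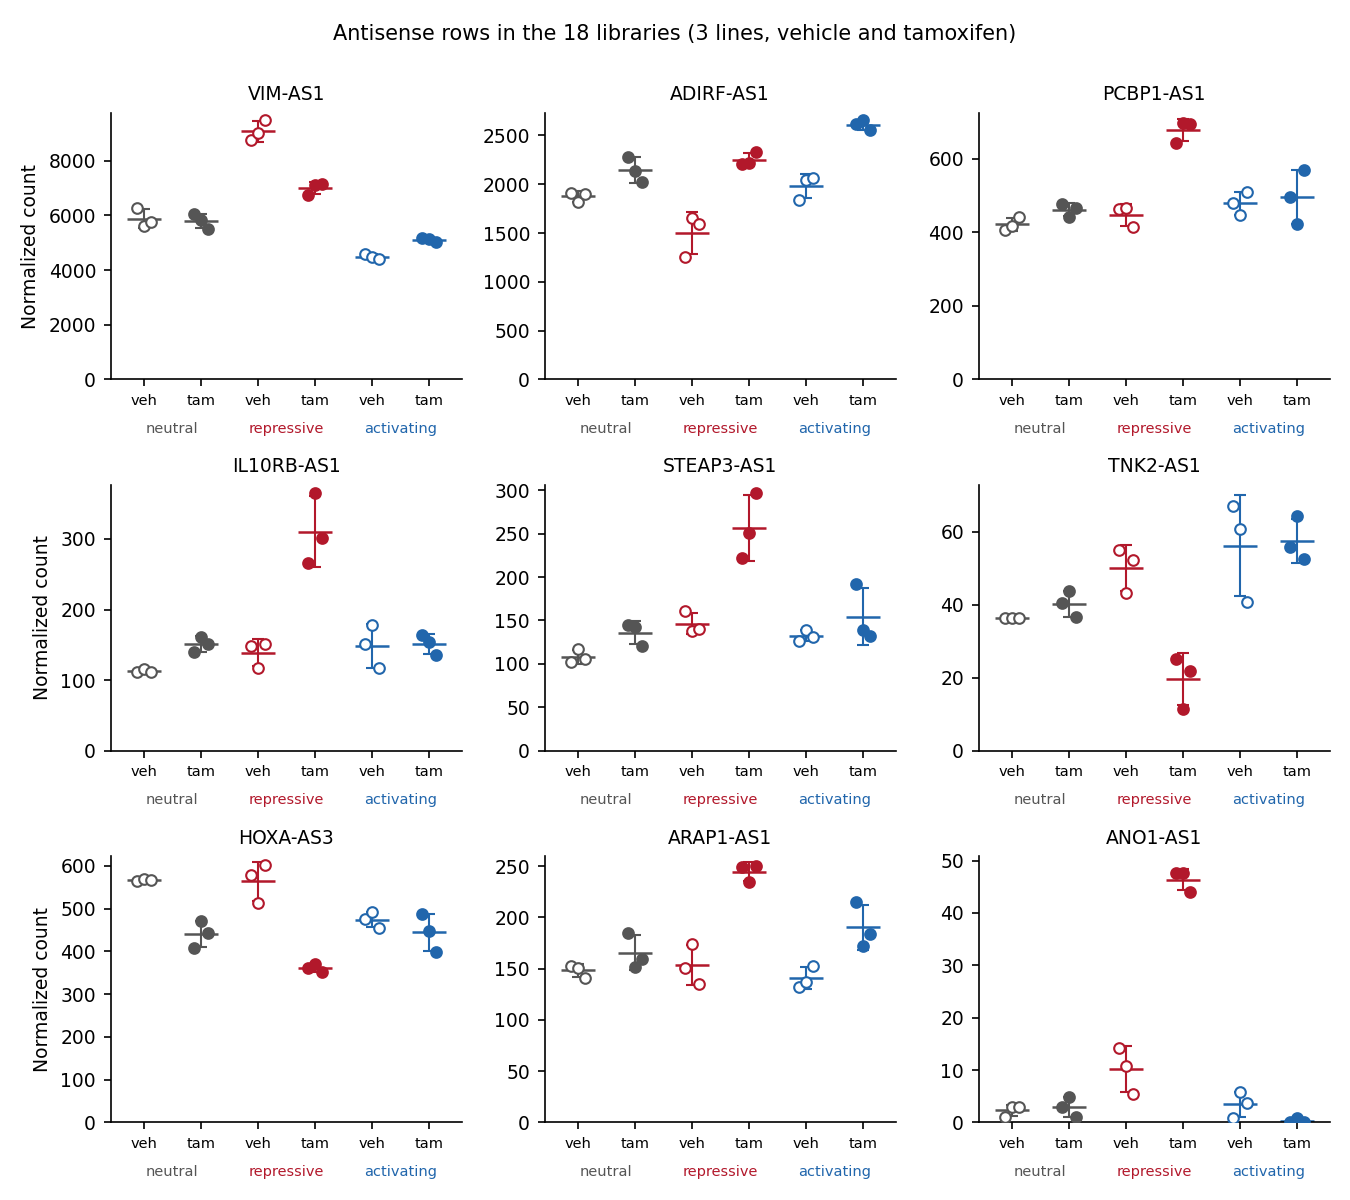
Normalized counts (vertical axes, from 0) of 9 antisense rows in the 18 libraries by line and treatment; open points are vehicle (veh), filled points tamoxifen (tam), horizontal lines the mean of 3 libraries and bars 1 SD. All 9 rows were called in the repressive line, and there the 3 tamoxifen points do not overlap the 3 vehicle points in any panel. VIM-AS1, ADIRF-AS1 and ARAP1-AS1 also separate in the activating line. In the neutral line ADIRF-AS1, IL10RB-AS1, STEAP3-AS1, TNK2-AS1 and HOXA-AS3 separate.

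Of the 15 members on the list of transcription and chromatin partners, 2 rose in the repressive line (PCBP1-AS1 and ZNF503-AS2, 13.3%, beside 9.65% of all tested genes called), none fell, and the median was 0.11. HOXA-AS3, opposite a homeobox gene and without a partner row, was not on the list and fell. In the activating line 1 fell (ZNRD1-AS1, opposite an RNA polymerase I subunit gene, -0.55, DESeq2 adjusted p = 0.048). That call held under none of the alternatives tried. It was 6.67% of the 15 members, beside 2.80% of all tested genes in the activating line. PCBP1-AS1 (chr2:70187236-70330352) had 462, 467 and 413 normalized counts with vehicle and 643, 698 and 694 with tamoxifen in the repressive line, a rise of 0.60 on the log2 scale (SE 0.10, DESeq2 adjusted p = 2.9e-07) with no overlap. The PCBP1 row had 0.22 (adjusted p = 0.85). ZNF503-AS2, named for a zinc finger repressor, had 205, 205 and 195 against 298, 330 and 297, a rise of 0.61 on the log2 scale (SE 0.14, adjusted p = 0.00021).

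ADIRF-AS1 rose in both lines with an effector domain. It had 1256, 1652 and 1590 normalized counts with vehicle and 2209, 2216 and 2331 with tamoxifen in the repressive line, and 1841, 2047 and 2063 against 2614, 2658 and 2557 in the activating line. In the neutral line it had 1912, 1814 and 1901 against 2282, 2136 and 2019. Its groups did not overlap in any of the 3 lines. The log2 fold changes were 0.59 (SE 0.08, DESeq2 adjusted p = 2.0e-11) and 0.40 (SE 0.08, adjusted p = 2.9e-05), and the neutral change was not past the threshold. Activating minus neutral was not called (0.20, adjusted p = 0.47). The ADIRF row was at 141 to 297 normalized counts in all libraries and was called in no comparison.

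HOXA-AS3 (chr7:27169596-27195547), transcribed through the cluster of HOXA homeobox genes, fell in the neutral and repressive lines. It had 565, 570 and 567 normalized counts with vehicle and 409, 471 and 443 with tamoxifen in the neutral line, and 578, 512 and 601 against 361, 370.3 and 351 in the repressive line. Both pairs of groups were apart, and the activating groups overlapped (476, 491 and 455 against 486, 448 and 398). The log2 fold changes were -0.36 (SE 0.10, DESeq2 adjusted p = 0.0090) and -0.64 (SE 0.10, adjusted p = 5.3e-09). Repressive minus neutral was not called (-0.28, DESeq2 adjusted p = 0.24). The neutral change was the only one called among members in that line. It was lost under edgeR (adjusted p = 0.13), without neutral tamoxifen replicate 1 (0.123) and without neutral vehicle replicate 2 (0.0616).

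Of the 10 members on the list of metabolism and transport partners, 2 fell in the repressive line (DHRS4-AS1 and DNAJC9-AS1) and none rose. The median of the 10 was -0.18. Among all tested genes 9.65% were called in that line, with 4.02% called lower. With 2 calls among 10 members, no direction for such partners is read from these values. None of the 10 was called in the activating line, beside 2.80% of all tested genes. The DHRS4-AS1 row of the higher level, 1 of 2 of that name and without a gene model here, had 399, 483 and 505 normalized counts with vehicle and 256, 348 and 345 with tamoxifen. Its fall of -0.55 (SE 0.15, DESeq2 adjusted p = 0.0025) was lost without repressive tamoxifen replicate 1 (0.0602). DNAJC9-AS1 is on the list through its name only, since DNAJC9 is a co-chaperone of histones and the row lies opposite TTC18. It had 438, 437 and 444 against 267, 349 and 342, a fall of -0.46 (SE 0.11, DESeq2 adjusted p = 0.00088). CERS6-AS1, outside the list, fell by little and evenly, from 1893, 2092 and 2083 to 1586, 1670 and 1699.8 normalized counts (log2 fold change -0.29, SE 0.07, adjusted p = 0.00089). In all 3 rows every tamoxifen library of the repressive line was below every vehicle library. The neutral groups of CERS6-AS1 were apart in the same direction, with 2201, 2083 and 2078 against 1970, 2060 and 1832 (log2 fold change -0.12, not called). Its difference between the 2 lines was not called (-0.17, DESeq2 adjusted p = 0.35).

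Of the 16 members on the list of RNA, protein turnover, cell cycle and genome maintenance partners, 1 (6.25%) rose in the repressive line. In that line 9.65% of all tested genes were called. None of the 16 was called in the activating line, and the medians of the 2 lines were -0.09 and 0.00. The member that rose was MYCBP2-AS1, opposite a large ubiquitin ligase gene, with 122, 123 and 119 normalized counts against 194, 183 and 136 (log2 fold change 0.50, DESeq2 adjusted p = 0.046). It was lost under edgeR and without any of 5 libraries (0.107 to 0.226).

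Outside the lists, LIPE-AS1, opposite the hormone-sensitive lipase gene, rose (log2 fold change 0.60, SE 0.17, DESeq2 adjusted p = 0.0059), as did FAM13A-AS1 (0.92, SE 0.22, adjusted p = 0.00048). KCTD21-AS1 rose by 0.48 (adjusted p = 0.031) and NAV2-AS1, opposite a neuron navigator gene, by 0.74 (adjusted p = 0.023). Falls were seen for SLC7A11-AS1, opposite the cystine transporter gene (-1.36, adjusted p = 0.029), for GLYCTK-AS1, opposite a glycerate kinase gene (-1.09, adjusted p = 0.039), and for SAPCD1-AS1 (-2.15, adjusted p = 0.015). ZBED3-AS1 had 30 counts in the 3 vehicle libraries and 1 in the 3 tamoxifen libraries, a ratio of 0.035 (95% exact binomial interval 0.00085 to 0.21). LIPE-AS1 and FAM13A-AS1 were called under every alternative, while KCTD21-AS1, NAV2-AS1, SLC7A11-AS1, GLYCTK-AS1, SAPCD1-AS1 and ZBED3-AS1 each lost the call when 1 of 1 to 5 libraries was left out, with adjusted p up to 0.378. CBR3-AS1, opposite a carbonyl reductase gene, rose in the activating line (0.98, SE 0.34, adjusted p = 0.047) and was lost under edgeR and without any of 4 libraries (0.207 to 0.385). Of the 26 calls in the repressive line other than ANO1-AS1, 13 held under every alternative that gave an adjusted p, and of the 6 in the activating line 1 did, ADIRF-AS1.

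The partner rows give a second reading at the same loci. Both rows were tested in 83 pairs (79 partner genes). In the repressive line tamoxifen called 8 of the 79 partner genes, a share near the 9.65% of all tested genes. None was called in the neutral and activating lines, beside 0.774% and 2.80% of all tested genes. Under edgeR the partner counts were 7 in the repressive line and none in the others. The repressive line had 12 pairs with only the antisense row called, 5 with only the partner called, 4 with both and 62 with neither. In 2 of the 4 both rows fell (VIM-AS1 with VIM, FAM211A-AS1 with FAM211A) and in the other 2, which share the partner EPB41L4A, they went opposite ways.

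**Figure D4:**
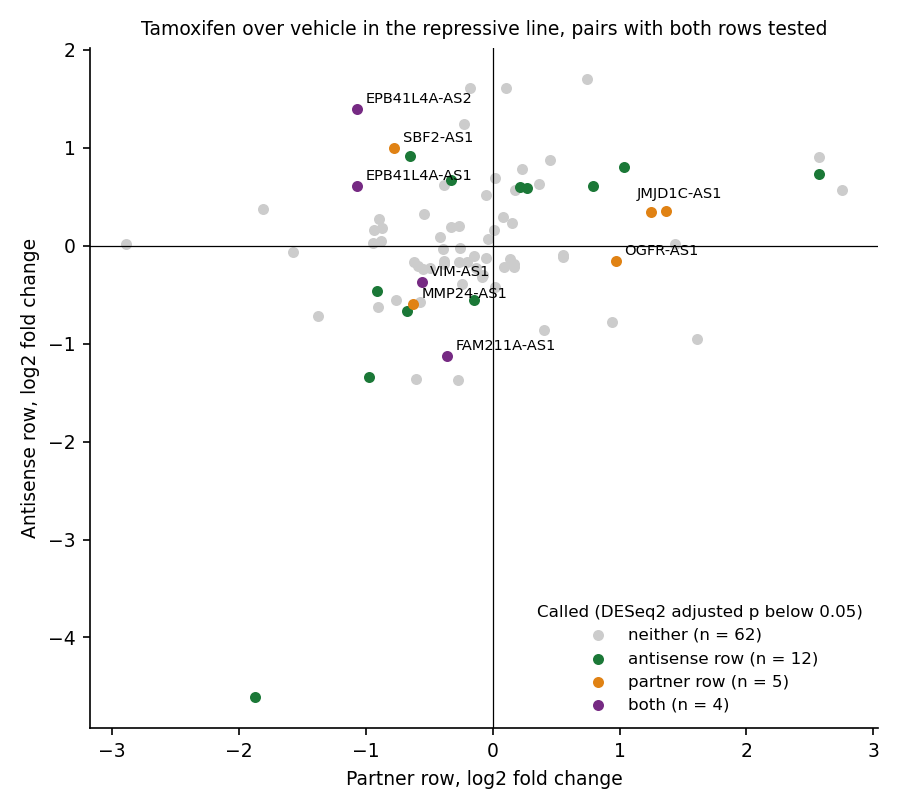
Log2 fold change with tamoxifen in the repressive line of the antisense row (vertical axis) against its partner row (horizontal axis) for the 83 pairs with both rows tested, coloured by which row had a DESeq2 adjusted p below 0.05. The 2 EPB41L4A antisense rows lie at upper left, where the antisense row rose and the partner fell, and VIM-AS1 and FAM211A-AS1 at lower left.

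EPB41L4A-AS1 (chr5:111496223-111500515) had 202, 189 and 245 normalized counts with vehicle and 289, 385 and 296 with tamoxifen in the repressive line. The EPB41L4A row had 147, 169 and 142 with vehicle and 72.8, 80.1 and 66.0 with tamoxifen. In each row the groups did not overlap, in opposite directions, while in the neutral line both rows overlapped. For EPB41L4A-AS1 the difference between the repressive and neutral effects was not called (0.58, DESeq2 adjusted p = 0.11). For EPB41L4A it was called (-1.05, adjusted p = 0.00042). The antisense row rose by 0.61 (SE 0.16, DESeq2 adjusted p = 0.0023) and the partner row fell by 1.07 on the log2 scale (SE 0.18, adjusted p = 1.0e-07). With the rows of EPB41L4A, EPB41L4A-AS1 and EPB41L4A-AS2 added together no change was called (log2 fold change 0.18, DESeq2 adjusted p = 0.41). The EPB41L4A-AS1 call was also lost without repressive tamoxifen replicate 2 (0.0548). EPB41L4A-AS2, at 15.8 counts, had 12.3, 11.7 and 11.03 against 32.0, 22.05 and 37.7 (1.39, SE 0.50, adjusted p = 0.043) and lost its call under edgeR and without any of 5 libraries (0.0956 to 0.171).

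FAM211A-AS1 had 54.1, 57.5 and 54.2 normalized counts with vehicle and 27.2, 29.0 and 19.9 with tamoxifen in the repressive line. The FAM211A row, far above it in level, had 12536, 14378 and 15616 against 9873, 11123 and 12112. Both rows were lower with tamoxifen in all libraries of that line. The difference from the neutral effect was not called for FAM211A-AS1 (-1.01, DESeq2 adjusted p = 0.16) or for FAM211A (-0.23, adjusted p = 0.17). The log2 fold changes were -1.13 (SE 0.32, DESeq2 adjusted p = 0.0063, and 0.0564 without repressive tamoxifen replicate 3) and -0.36 (SE 0.07, adjusted p = 1.7e-05).

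**Figure D5:**
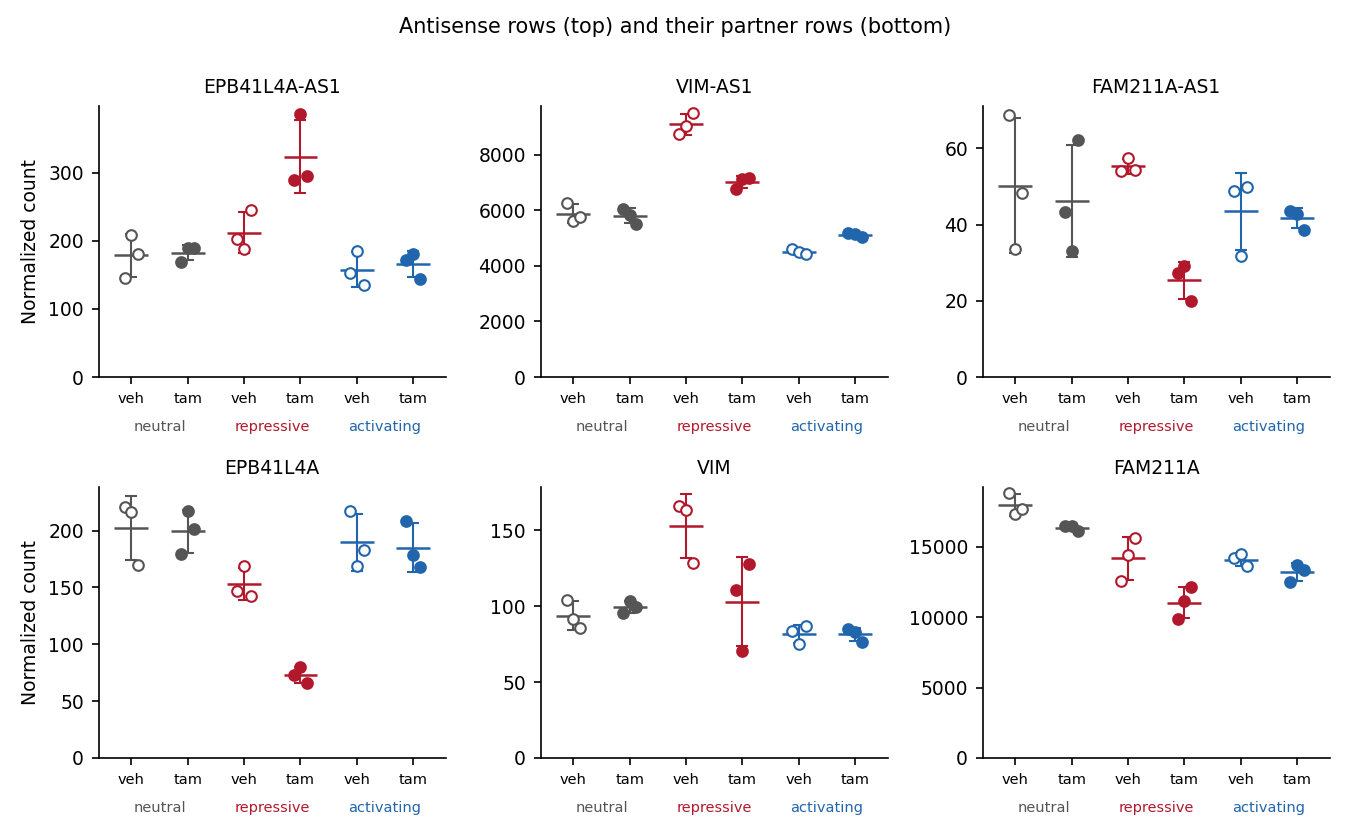
Normalized counts (vertical axes, from 0) of 3 antisense rows (top) and their partner rows (bottom) in the 18 libraries; open points are vehicle (veh), filled points tamoxifen (tam), horizontal lines means of 3 libraries and bars 1 SD. In the repressive line EPB41L4A-AS1 rose and EPB41L4A fell, whereas both rows of the VIM and FAM211A pairs fell.

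The 5 pairs with only the partner called were pairs with counts mainly or similarly in the partner row. Of these, OGFR rose by 0.97 on the log2 scale (DESeq2 adjusted p = 0.00013) beside -0.16 for OGFR-AS1, and JMJD1C, a gene of the histone demethylase family, by 1.36 (adjusted p = 0.0077) beside 0.36. MMP24 changed by -0.62 (adjusted p = 5.1e-06) beside -0.59 for MMP24-AS1, and SBF2 by -0.77 (adjusted p = 0.0040) beside 0.99 for SBF2-AS1. None of the 5 antisense rows was past the threshold.

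Whether tamoxifen acted differently between lines was tested as the difference of the effects in the same model. The repressive effect differed from the neutral one for 10 members (5.95%), beside 3.85% of all tested genes, 8 with a higher and 2 with a lower difference (2.34% and 1.51% of all genes). These comparisons share the neutral libraries with the next. VIM-AS1 had a difference of -0.35 (SE 0.08, DESeq2 adjusted p = 0.00015), and TNK2-AS1 of -1.48 (SE 0.43, adjusted p = 0.013). ADIRF-AS1 (0.39), PCBP1-AS1 (0.47), IL10RB-AS1 (0.74), ZNF503-AS2 (0.61) and MYCBP2-AS1 (0.94) had positive differences with adjusted p of 0.0095 to 0.034. Only VIM-AS1 held under every alternative, TNK2-AS1 was lost without repressive tamoxifen replicate 2 (0.062), MYCBP2-AS1 without repressive tamoxifen replicate 1 (0.0507), and ADIRF-AS1 with total-count scaling (0.11). PCBP1-AS1, IL10RB-AS1 and ZNF503-AS2 lost the call under edgeR and when any of several libraries was left out (0.0515 to 0.137).

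SMARCA5-AS1, YEATS2-AS1 and ACTA2-AS1 were called for the difference and not within either line. SMARCA5-AS1, opposite the ATPase of ISWI chromatin remodellers, had 393, 405 and 383 normalized counts against 322, 287 and 369 in the neutral line and 410.1, 324 and 439 against 509, 486 and 478 in the repressive line, a difference of 0.60 (SE 0.18, DESeq2 adjusted p = 0.014). YEATS2-AS1, opposite a gene for a reader of histone acylation, had 236, 187 and 235 against 174, 170 and 140.4 in the neutral line and 178, 176 and 185 against 219, 223 and 190 in the repressive line, a difference of 0.67 (SE 0.21, adjusted p = 0.025). ACTA2-AS1, opposite the smooth muscle actin gene, had 17.7, 19.1 and 13.8 against 0, 12.7 and 10.2, and 14.2, 14.4 and 7.35 against 24.3, 39.5 and 38.8 (difference 2.66, SE 0.84, adjusted p = 0.028). All 3 were lower with tamoxifen in every neutral library and higher in every repressive library. This describes the values on which the differences were called and is not a further test. The calls of SMARCA5-AS1 (0.0608 and 0.0634), YEATS2-AS1 (up to 0.0882) and ACTA2-AS1 (up to 0.0879) were lost without 1 of several libraries.

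The activating effect differed from the neutral one for 1 member (0.595%), beside 0.619% of all genes. This was YEATS2-AS1, with 162, 200 and 160 normalized counts against 221, 187 and 205 in the activating line and a difference of 0.67 (SE 0.21, DESeq2 adjusted p = 0.047). It was lost under edgeR and without any of 9 libraries in turn (0.0522 to 0.198).

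The vehicle-treated lines were compared as a baseline. Against neutral vehicle, 6 members (3.57%) were called in the repressive line and 2 (1.19%) in the activating line, beside 2.51% and 0.808% of all genes. In the repressive line 2 were higher and 4 lower (0.997% and 1.51% of all genes). VIM-AS1 was higher in repressive vehicle than in neutral vehicle by 0.63 (SE 0.05, DESeq2 adjusted p = 6.6e-29) and lower in activating vehicle by 0.39 (log2 -0.39, SE 0.05, adjusted p = 3.6e-10). In the order of vehicle levels, repressive was above neutral and neutral above activating, with no overlap. The VIM row was also higher in repressive vehicle (0.70, SE 0.20, adjusted p = 0.012). PXN-AS1 was higher by 0.25 (adjusted p = 0.049), a call lost under edgeR and without any of 5 libraries (0.0683 to 0.273).

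Among those lower in repressive vehicle, RNF185-AS1, opposite a ubiquitin ligase gene of the endoplasmic reticulum, had 190.5, 211 and 166 normalized counts in neutral vehicle and 99.7, 120.4 and 106 in repressive vehicle (-0.80, SE 0.19, DESeq2 adjusted p = 0.0013), with no overlap. ADIRF-AS1 was lower by 0.32 (log2 -0.32, adjusted p = 0.0028), HNRNPU-AS1 by 0.38 (log2 -0.38, adjusted p = 0.015) and P4HA2-AS1, opposite a collagen prolyl hydroxylase gene, by 0.57 (log2 -0.57, adjusted p = 0.018). Each of these 3 lost its call without repressive vehicle replicate 1 (0.0648, 0.117 and 0.146), HNRNPU-AS1 also without neutral vehicle replicate 1 (0.214) or repressive vehicle replicate 2 (0.0586) and P4HA2-AS1 also without neutral vehicle replicate 2 (0.19). P4HA2-AS1 was also lower in activating vehicle (log2 -0.48, adjusted p = 0.038, up to 0.816 without a library). Of the partners, FAM211A was lower in both lines (-0.34 and -0.35), and GAS6, a ligand of TAM receptor kinases, was higher in the repressive line (1.59, adjusted p = 0.029) beside 0.82 for GAS6-AS1, which was not called.

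The constructs bind AREs, whose core hexamer is AGAACA, which reads as TGTTCT on the other strand. A promoter counted once, whatever the number of matches. Promoters of 300 bases, 250 before and 50 after the start site, were available from RefSeq (GRCh38.p14) for 112 of the 168 members, and 12 of these held the hexamer on either strand (10.7%), beside 14.8% of 35116 promoters. Of the 27 members called in the repressive line, 19 had a promoter and 2 held it. The full palindrome of AGAACA, 3 bases of any kind and TGTTCT was in no member's promoter and in 1 of all promoters. A match describes letters in this window and not binding.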

How the data were processed

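RNA-seq libraries of RWPE1 cells (18 libraries, 6 groups of 3) were analysed from the gene table deposited for the series. The authors made stranded poly(A) libraries, ran nf-core/rnaseq 3.10 under Nextflow 22.10.4 with the GRCh37 genome option and quantified genes with salmon 1.9.0. Per the submitters' processing notes they used DESeq2 1.28.0 for testing. The deposited values are expected counts, salmon's estimated reads per gene, scaled neither for depth nor for length. Of them 1.10% were not whole, and all were rounded before testing. No depth other than the total counts was used, and intervals and floors cover counting error only.

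Genes that reached 10 counts in 3 or more libraries were fitted in DESeq2 1.42.0 (R 4.3.3) with 1 mean for each of 6 groups. Median-of-ratios size factors, Wald tests, independent filtering and Benjamini-Hochberg adjustment were used. Of the 5816 genes fitted, independent filtering left an adjusted p for 1193 (neutral), 4575 (repressive) and 1644 (activating) with tamoxifen. It left 3110 and 1419 for the repressive and activating differences, and 3222 and 517 for the repressive and activating vehicle comparisons. The 7 comparisons were tamoxifen against vehicle in each line, the differences of that effect from the neutral line, and the vehicle lines against neutral. Fold changes are unshrunken. The partner is the gene named before -AS, whose row was read from the same fit. Exon overlaps came from GENCODE release 44 lifted to GRCh37, which held 161 of the members by gene identifier. Alternatives were edgeR 4.0.16 (quasi-likelihood, TMM), total-count size factors, no low-count filter, no independent filtering, a replicate block, only the groups compared, summed pair rows, and leaving out each library. Each summed row held a partner and all antisense rows named for it. The scripts were tested on simulated data with known changes.

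The members and the gene lists were chosen with earlier results of these data known. Named in the text are up to 10 called members per comparison by size of change, the 12 members of highest level, the 5 with the lowest antisense share of the pair among pairs with at least 10 counts in both rows, and the partners of these or called themselves. One pair that this rule names is not reported here. Further called members are named to give the calls in full, and were chosen after their values were seen. The 4 partner lists cover transcription and chromatin, adhesion and signalling, metabolism and transport, and RNA, protein turnover, cell cycle and genome maintenance. A list of well-known lncRNAs is given in the closing section. The labels name biological replicates and no batch.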

Additional observations from a re-analysis of the deposited data

Results flagged for a closer look

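The results below were marked because the tamoxifen effect on an antisense row differed between lines in a test of that difference (DESeq2, log2 scale). For repressive minus neutral, the differences were -0.35 for VIM-AS1 (adjusted p = 0.00015), -1.48 for TNK2-AS1 (0.013), 0.94 for MYCBP2-AS1 (0.0095), 0.39 for ADIRF-AS1 (0.012), 0.60 for SMARCA5-AS1 (0.014), 0.67 for YEATS2-AS1 (0.025), 0.47 for PCBP1-AS1 (0.027), 2.66 for ACTA2-AS1 (0.028), 0.61 for ZNF503-AS2 (0.034) and 0.74 for IL10RB-AS1 (0.034). For activating minus neutral, the difference was 0.67 for YEATS2-AS1 (0.047). Both sets of differences use the same neutral libraries. Groups of 3 are too small for the test of single outlying libraries, so none was marked on that ground.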

How the results depend on the processing

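The repressive tamoxifen count of 27 members held within 1.5 times under all alternatives (22 to 32, with 23 under edgeR), and at 18 to 25 with 1 library left out. Other counts moved further. Under edgeR the counts were 0 in the neutral and 1 in the activating line for tamoxifen, 6 for repressive minus neutral, 0 for activating minus neutral and 1 for activating against neutral vehicle. With total-count size factors, activating minus neutral gave 2 and activating vehicle 1, and partner calls were 1 in the neutral line and 5 for repressive minus neutral. Without the low-count filter the neutral count was 2 and the activating vehicle count 1. Without independent filtering the counts were 2 for tamoxifen in the activating line, 0 for activating minus neutral and 1 for activating vehicle. On the groups compared alone they were 3 in the neutral line, 2 in the activating line, 0 for activating minus neutral and 1 for activating vehicle. Replicate numbers do not pair the libraries (correlations of same-numbered deviations from -0.03 to 0.00), and a replicate block gave 25, 2 and 0 calls in the repressive line, the activating line and activating minus neutral. With 1 library left out the ranges were 0 (without neutral tamoxifen replicate 1) to 1 in the neutral line, 2 to 3 in the activating line (each of its libraries), 4 (without repressive tamoxifen replicate 2) to 10 for repressive minus neutral, 0 to 2 for activating minus neutral, 2 (without repressive vehicle replicate 1) to 5 for repressive vehicle and 1 to 2 for activating vehicle. The antisense share of 59.5% was 68.1% per kilobase, 94.5% as the median over members of each member's median share in single libraries, 46.8% over all named rows with a count, 88.1% without the FAM211A pair (chosen after seeing the data), and 59.1% to 59.8% without 1 library. No single member changed direction: of the values for called members, 542 stayed called, 196 lost the call (124 of them with a library left out) and 17 had no adjusted p. The causes were not tested. At 675609 to 792282 counts per library, changes of low rows are poorly resolved, and a missing call does not show that a row did not change.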

Other observations

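Of a list of 35 well-known lncRNAs, most of which do not carry an antisense name, 10 reached the count limit. H19, an imprinted lncRNA, was the only one called in the repressive line, where it was higher with tamoxifen, and its counts ran from 13 to 394 over all 18 libraries. This was 10.0% of the 10, beside 9.65% of all tested genes. None of the 10 was called in the neutral or activating line. Several lncRNAs that are abundant in most cells were low here: MALAT1 had a mean of 3.17 counts per library, NEAT1 12.2, SNHG1 1.39 and TUG1 0.5. GAS5 had 24.5 counts and FTX 23.4. VIM-AS1, ADIRF-AS1, CERS6-AS1 and PXN-AS1, with 1297 to 6416 counts, were all above these in mean count per library. Counts are not scaled for length, and the part of strand assignment in these levels was not tested.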
